A study of Mus musculus with 2 samples.

Results

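The neuronal cytoskeleton and growth genes examined here were 10 genes chosen by name, Nefl, Nefm, Nefh, Ina, Map2, Mapt, Stmn2, Tubb3, Dcx and Gap43, of 21951 protein-coding genes in GENCODE vM21 on mm10. The DNase-seq data came from frontal cortex of male B6CASTF1/J mice aged 10 days, an F1 cross between an inbred laboratory strain and a wild-derived one. There was 1 group with 2 biological replicates and no second condition. The labels note 3 males, and both samples carry the same donor entry. Every value below is therefore given for replicate 1 and replicate 2, and differences between them show how far these samples vary, in part perhaps for technical reasons. No test between conditions is possible, and no p-value is given.

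DNase I cuts chromatin where nucleosomes are absent or displaced, so dense cutting marks accessible promoters and enhancers, and short protected gaps inside such regions (footprints) mark bases covered by bound protein. Neurofilaments are the intermediate filaments of neurons and are built from the light, medium and heavy subunits (Nefl, Nefm, Nefh) together with alpha-internexin (Ina), which is made earlier in development than the others. Growing neurites rely on microtubules made with the neuronal beta-tubulin Tubb3, on doublecortin (Dcx) in migrating and young neurons, on the microtubule-destabilising stathmin Stmn2 and on the growth cone membrane protein Gap43, whereas Map2 and tau (Mapt) stabilise microtubules in dendrites and axons. In what follows Dcx, Tubb3, Stmn2, Gap43 and Ina are the immature-neuron genes and Nefl, Nefm, Nefh, Map2 and Mapt the mature-neuron genes, 5 of each.

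The promoter sequences of Tubb3 and Dcx are shown first because Tubb3 had the strongest promoter peak of the 10 genes and Dcx was the one gene without a promoter peak in the main lists. Both are RefSeq sequences of the GRCm38.p6 build, from 250 bases before to 50 after the start, and capitals mark short promoter motifs found on either strand. The GC box, bound by Sp factors, was searched for as the letters GGGCGG. The CCAAT box, bound by the factor NF-Y, was searched for by the letters of its name, and the core promoter element called the TATA box as TATAAA.
Tubb3, chr8:123411303-123411602, plus strand: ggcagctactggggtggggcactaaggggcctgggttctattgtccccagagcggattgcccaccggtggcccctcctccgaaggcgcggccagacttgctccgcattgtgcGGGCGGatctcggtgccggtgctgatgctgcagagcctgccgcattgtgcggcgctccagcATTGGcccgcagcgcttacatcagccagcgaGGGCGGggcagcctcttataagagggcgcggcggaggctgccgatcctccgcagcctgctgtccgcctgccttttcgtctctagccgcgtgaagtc
Dcx, chrX:143933170-143933469, minus strand: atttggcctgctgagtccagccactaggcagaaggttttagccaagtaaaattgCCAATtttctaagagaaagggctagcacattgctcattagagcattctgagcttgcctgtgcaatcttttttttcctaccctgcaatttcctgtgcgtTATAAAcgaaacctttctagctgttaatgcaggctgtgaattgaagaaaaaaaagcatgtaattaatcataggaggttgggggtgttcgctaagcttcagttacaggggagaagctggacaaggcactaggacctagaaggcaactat
The Tubb3 promoter was 67.3% G and C with 26 CpG dinucleotides and held 2 GC boxes and 1 CCAAT box. The Dcx promoter was 43.0% G and C with 3 CpG dinucleotides and held 1 match to the CCAAT box, 1 to the TATA box and none to the GC box. Over 20118 RefSeq promoters of protein-coding genes the medians were 57.0% and 14, and 47.7% held a GC box, 37.8% a CCAAT box and 12.2% a TATA box. All of these are matches of letters, and their distance from the start was not taken into account. For both genes the RefSeq start also differs from the GENCODE gene start used below. RefSeq promoters were also matched for Map2 and Ina, and Dcx had a second entry with a start further downstream, while Nefl, Nefm, Nefh, Mapt, Stmn2 and Gap43 were not matched.

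Footprints found in both libraries that matched one short motif, GTTGCC, a partial site for RFX factors, lay in accessible sites of Tubb3, Map2 and Gap43. They are printed with 10 bases of mm10 sequence on each side, with the match in capitals.
Tubb3 intron, chr8:123412716-123412754, plus strand: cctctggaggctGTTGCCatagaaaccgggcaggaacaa
Map2 internal start, chr1:66386861-66386895, plus strand: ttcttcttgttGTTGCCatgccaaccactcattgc
Gap43 intron, chr16:42269434-42269486, plus strand: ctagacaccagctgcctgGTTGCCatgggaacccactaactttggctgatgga
Gap43 second start, chr16:42276624-42276664, minus strand: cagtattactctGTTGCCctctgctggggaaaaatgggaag
These 4 were among 73 joined footprints in the spans of the 10 genes, or 5.48%, beside 2.73% of 86649 shared footprints genome-wide and 12.4% of promoters with the same letters on either strand, the added bases included. RFX was 1 of 18 motifs searched, of which 5 had a higher and 13 a lower share in these spans than genome-wide. The GC box was in 12.3% against 17.8%, the CCAAT box in 2.74% against 6.70%, the E-boxes in 11.0% against 6.26%, and 9 motifs had no match. In the first Gap43 line the E-box CAGCTG also occurs, at the edge of the footprint and partly in the added bases, without overlapping the RFX match. Each match is a description of letters, and no factor was measured. Whether these bases are bound by RFX proteins was not tested.

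Of the 10 genes, 9 had a peak in both libraries within 1 kb of a transcription start site (TSS) in the annotation, beside 55.1% of all protein-coding genes. The exception was Dcx. Peaks here are those of the first-run lists, in which every peak held a base with a false discovery rate (FDR) under 0.001. In the smaller list of peaks that the authors derived from the sequencing reads, all 10 genes had one, beside 57.9% of genes. A hotspot, a broader region of raised cutting, lay within 1 kb of a TSS in both libraries for all 10 genes, beside 63.3%, and a footprint for 9 of 10, beside 59.5%, with Dcx again the exception. For these counts each library needed a feature in the window, whether or not the features of the libraries overlapped. At Nefm each library had 1 footprint in the window, and these did not overlap. A peak found in both libraries lay anywhere in the span (gene body plus 10 kb upstream) of 9 genes, beside 64.1%. These counts mix very different starts, from a strong peak at Tubb3 to a bare start at Gap43, whose peak was at a second start far inside the gene.

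**Figure D1:**
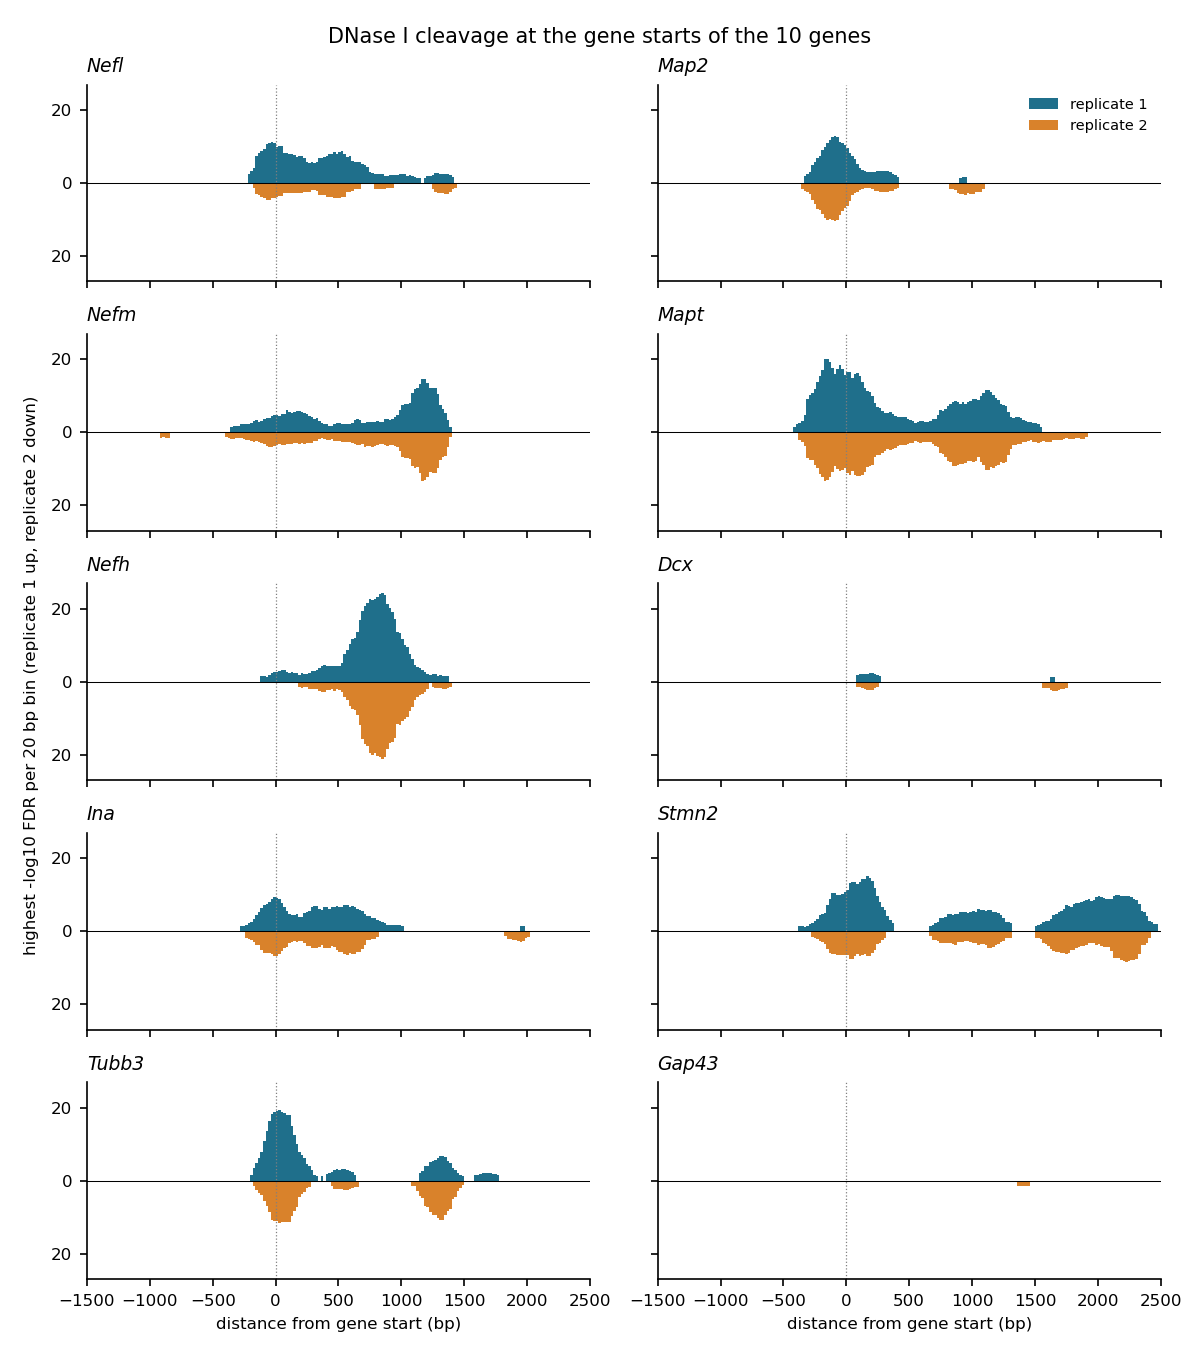
Highest −log10 FDR of DNase I cutting in 20 bp bins (vertical axis, replicate 1 upward and replicate 2 downward) against distance from the gene start in bp (horizontal axis) for the 10 genes. Tubb3, Map2 and Mapt were highest around the start, Nefh and Nefm downstream of it, Dcx reached at most 2.67, and Gap43 had no bin above the threshold within 1 kb of its start.

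The neurofilament genes Nefl and Nefm are neighbours on chromosome 14 and are transcribed in opposite directions. Nefl (chr14:68083863-68089095, plus strand, mm10) had 2 exonic sites, at 78 and 536 bp from the start. The first had a peak density, the authors' depth-normalised cutting signal, of 1.55 in replicate 1 and 0.830 in replicate 2, and the second 1.21 and 0.751. Both lay in the lower to middle part of each library's peaks, at the 52.7th and 37.4th percentiles for the first. Cutting above threshold was spread widely, over 60.5% and 48.3% of the bases within 1 kb of the start, beside a median of 9.82% and 9.11% for protein-coding genes. Thus Nefl had a broad accessible start with modest peak height in both libraries.

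Nefm (chr14:68082590-68124846, minus strand) had a similar broad start with its strongest site downstream. The peak at the start had a density of 1.03 and 0.553. The strongest site, in an intron 1175 bp from the start, had 2.03 and 1.38 and 7 footprints found in both libraries. It fell just outside the 1 kb promoter window, so the promoter value of Nefm in the first run was 1.03 and 0.593, the 5.89th and 3.10th percentiles of genes with a promoter peak, whereas the read-derived peak there reached into the window with 2.03 and 1.39. Bases above threshold made up 67.4% and 71.8% of the window. Those shares were the largest of the 10 genes in both libraries, at the 98.0th percentile of all genes in replicate 1. This ranking joins the windows of all starts of a gene, 8198 bases for Mapt against 2001 for Nefm. Within 1 kb of the Mapt starts at its gene start alone, 1608 of 2195 bases were above threshold in replicate 1 and 1566 in replicate 2. For Nefm the numbers were 1349 and 1437 of 2001, so its start was not clearly the broadest. The vM21 model of Nefm extends over Nefl, so 2 of the 4 shared peaks counted for Nefm, 40.4 and 40.9 kb from its start, are those of the Nefl start.

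Nefh (chr11:4938754-4948064, minus strand), the heavy subunit, had a single peak, inside an exon and 833 bp downstream of the start, with 3.95 in replicate 1 and 2.58 in replicate 2. It stood at the 82.6th and 84.3rd percentiles of all peaks, and its hotspot had the highest −log10 FDR of any member, 26.1 and 24.3. The start itself lay outside the peak in both libraries. The peak held 8 footprints found in both libraries, of which one is shown because it carried the core of the cyclic AMP response element, TGACG, the only match to that motif in the 73 footprints.
Nefh exon, chr11:4947116-4947151, minus strand: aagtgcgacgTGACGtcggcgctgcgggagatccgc
That footprint lay 930 bp from the start, and 5.33% of shared footprints genome-wide held TGACG on either strand. Another neurofilament partner, Ina (chr19:47014698-47025327, plus strand), had sites at its start and 483 bp downstream in an exon. The start site had 1.86 and 1.20 and the exonic site 1.70 and 1.26, so the exonic site was the lower one in replicate 1 and the higher one in replicate 2. A TSS of the neighbouring gene Nt5c2 lies within 1 kb of both, and cutting there cannot be assigned to Ina alone.

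Tubb3 (chr8:123411424-123422015, plus strand) had the strongest promoter peak of the 10 genes in both libraries, 5.58 and 3.17, at the 63.6th and 57.2nd percentiles of genes with a promoter peak. A second strong site lay in the first part of the gene, in an intron 1287 bp from the gene start, with 2.45 and 2.97. It was the only site of the 24 found in both libraries that was higher in replicate 2. Its density ratio of replicate 1 to replicate 2, 0.824, was at the 3.02nd percentile of 31722 shared peaks genome-wide, which had a median of 1.39. The RFX match of Tubb3 printed above lies in this site. Another site, 521 bp from the start, was called in replicate 1 with 1.58 and was present in the read-derived lists of both libraries with 1.59 and 1.32. The looser first-run list and the read-derived list also held a site 4.4 kb upstream of Tubb3, with read-derived densities of 1.34 and 1.06. The upstream part of the Tubb3 span overlaps other genes, so that site cannot be assigned to Tubb3.

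**Figure D2:**
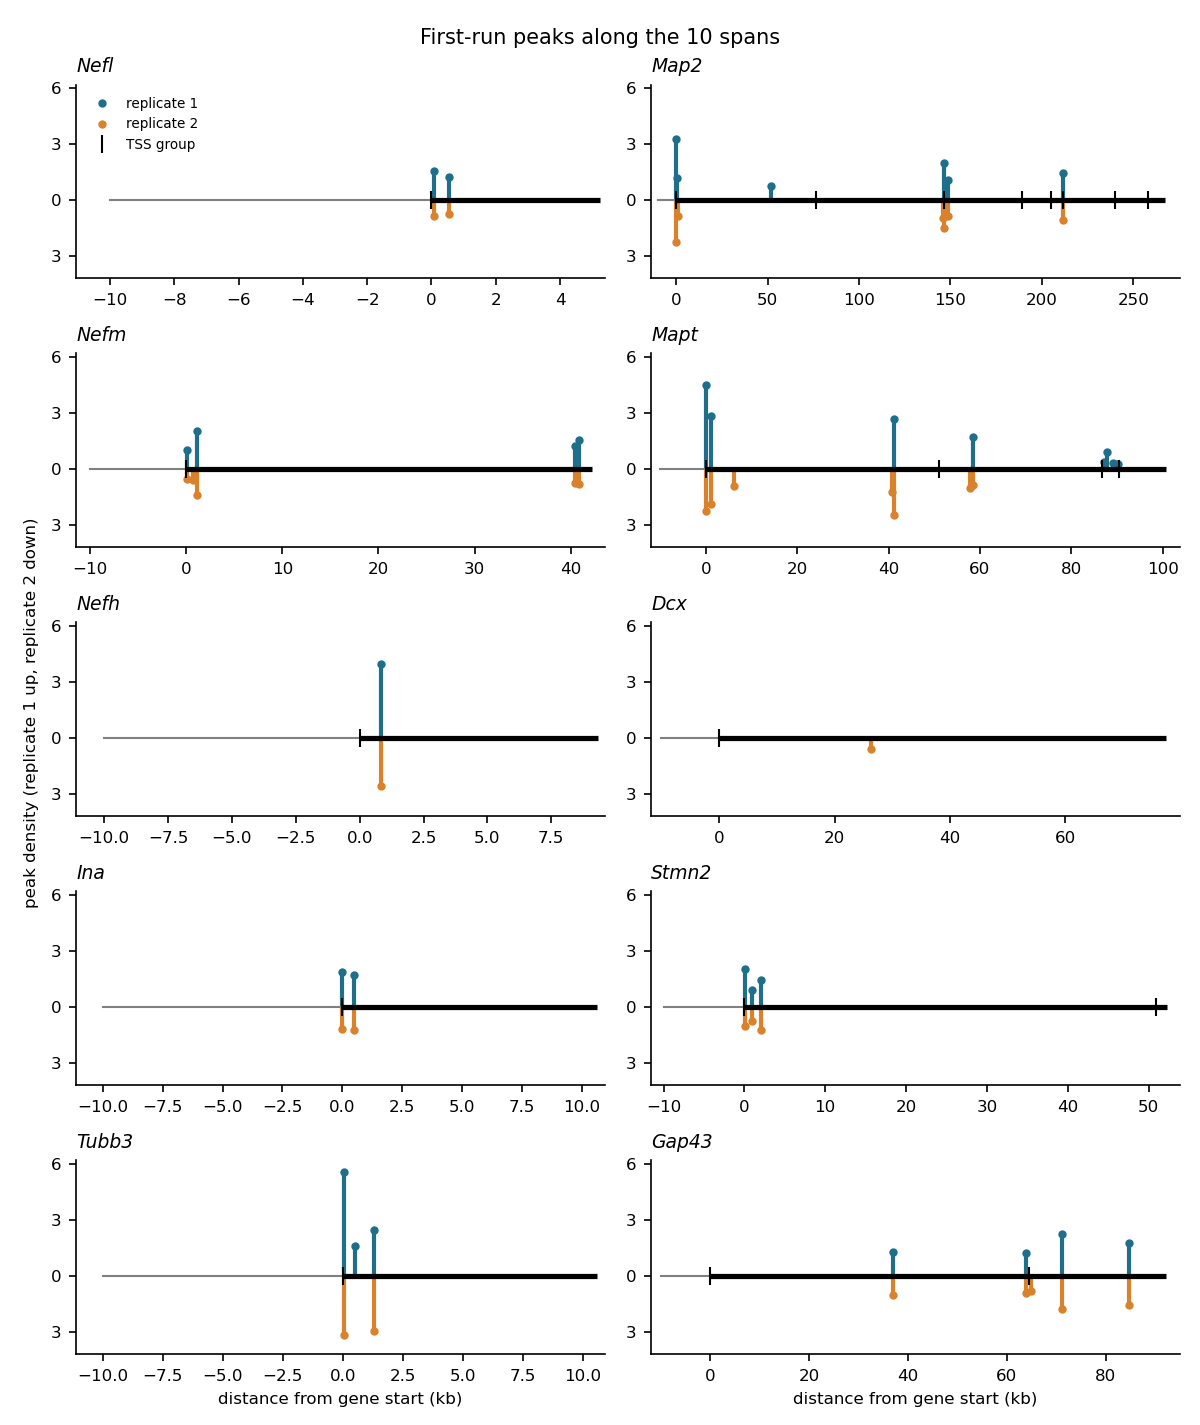
Density of each first-run peak (vertical axis, replicate 1 upward and replicate 2 downward) by distance from the gene start in kb (horizontal axis) along the span of each gene; black bars are gene bodies, grey lines the 10 kb upstream and ticks groups of annotated starts. The short genes had all their own peaks within about 2 kb of the start, Map2 and Mapt had internal sites as well, and those of Gap43 lay from 37.0 kb inward.

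Map2 (chr1:66175273-66442583, plus strand) has the longest span, 277.3 kb, with 24 annotated transcripts whose starts fall into 8 groups, and 3 of these groups had a peak in both libraries. The peak at the gene start had 3.29 and 2.26. The group 146.4 kb inside the gene had 1.98 and 1.50, and the group 211.7 kb inside had 1.43 and 1.08. Density thus fell from the first to the last of these accessible starts in both libraries. The other 5 groups, 76.4, 189.4, 205.2, 240.0 and 258.3 kb from the gene start, had no first-run peak in either library and no base with an FDR under 0.05. One of them, at 189.4 kb, had a weak peak of 0.493 in the larger read-derived list of replicate 2 alone. The RFX match of Map2 printed above lies 67 bp upstream of a start in the group at 211.7 kb. With 0.144 shared peaks per 10 kb, Map2 was below the median of protein-coding genes, 0.208.

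Mapt (chr11:104231390-104332090, plus strand) had 4 sites in the first-run lists of both libraries. In the looser list and in the smaller read-derived list it had 8 shared peaks each. The peak at its start had 4.52 and 2.24, and a site 1.0 kb downstream had 2.84 and 1.87. In introns, a site 41.1 kb from the start had 2.68 and 2.44 and a site at 58.5 kb had 1.72 and 0.883. The start had the largest ratio between libraries of the 24 shared sites, 2.02, whereas the intronic site at 41.1 kb had nearly equal densities, with a ratio of 1.09. A footprint in the intronic site at 58.5 kb is shown because it held CCCTAGNGG, part of the sequence bound by the insulator protein CTCF.
Mapt intron, chr11:104289903-104289943, plus strand: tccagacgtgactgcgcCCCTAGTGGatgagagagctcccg
This motif was searched for after the footprints had been seen. It occurred in 4 of the 73 joined footprints, against 0.570% of shared footprints genome-wide, at the start and the 58.5 kb intron of Mapt and in 2 neighbouring footprints at the site 4.4 kb upstream of Tubb3 that hold the same letters. Intronic sites at 6.0, 40.7 and 57.7 kb were called in the first run of replicate 2 alone, with 0.915, 1.21 and 1.04. That at 40.7 kb was in the smaller read-derived list of both libraries, with 1.20 and 1.22. A further 6 weak sites of Mapt, 87.2 to 90.3 kb from the start near noncoding transcripts of the gene, were called in replicate 1 alone, with densities from 0.227 to 0.910. No first-run peak of replicate 2 and no peak of the smaller read-derived lists overlapped them. The strongest, at 87.7 kb, overlapped a peak of 0.869 in the larger read-derived list of replicate 2 and hotspots of both libraries with a −log10 FDR of 1.94 and 2.22, while the lowest per-base FDR near it in replicate 1 was 3.80e-33. The cause of the disagreement between the lists was not tested.

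Dcx (chrX:143855842-143933311, minus strand) had the fewest first-run peaks of the 10 genes in replicate 1 and tied with Nefh for the fewest in replicate 2. The only first-run peak of Dcx was intronic, 26.4 kb from the start, with 0.599 in replicate 2 alone. At the start, the looser list had a peak of 0.487 and 0.375 and the read-derived list one of 0.513 and 0.389, which stood at the 0.436th and 0.373rd percentiles of promoter peaks in that list. The lowest FDR at a base near the start was 0.00346 and 0.00632, so the start failed the 0.001 threshold in both libraries and passed 0.05 in both. The same site was thus weak and present in each library. Hotspots were more frequent: 6 were found in both libraries, with −log10 FDR of 1.57 to 4.55 in replicate 1 and 2.19 to 6.91 in replicate 2. These included one at the start, 4.55 and 3.34, and one in the intron 26.4 kb inside, 4.27 and 6.91. Dcx is on the X chromosome, which males carry in a single copy, and copy number was not corrected for here. In bulk tissue, fewer cells of a type and less accessibility per cell cannot be told apart.

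Stmn2 (chr3:8509360-8561606, plus strand) had 3 sites in both libraries, all within 2.1 kb of its start. The start had 2.01 and 1.02, the site 1.0 kb downstream 0.921 and 0.744, and the site 2.0 kb downstream 1.43 and 1.26. The start was the highest site in replicate 1, whereas the intronic site at 2.0 kb was the highest in replicate 2. The density ratio between libraries was 1.97 at the start and 1.13 at 2.0 kb. The second annotated start of Stmn2, 50.9 kb inside the gene, had no peak in any list.

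Gap43 (chr16:42248442-42340651, minus strand) had no accessible start at its main transcript. Within 1 kb of the start of its protein-coding transcript there was no peak in any of the 4 lists, no hotspot and no base with an FDR under 0.05, in either library. The nearest signal was in replicate 2 alone, a hotspot 1.4 kb downstream with a −log10 FDR of 2.06. The looser list of replicate 2 held a peak of 0.474 there. Weaker hotspots of replicate 2 alone lay 2778 and 8146 bp downstream, with 1.62 and 1.67. The first-run peaks of Gap43 all lay deep inside the gene. They were at 37.0 kb (1.28 and 1.01), 64.0 kb (1.20 and 0.902), 71.2 kb (2.22 and 1.80) and 84.8 kb (1.73 and 1.58), each in both libraries, and at 64.9 kb in the first-run list of replicate 2 alone (0.804). The 64.9 kb site was in the smaller read-derived list of both libraries, with 0.931 and 0.836. The 71.2 kb site was the strongest in both libraries, at the 68.1st and 75.7th percentiles of all peaks, and carries an RFX match printed above. The peak at 64.0 kb lies within 1 kb of a noncoding transcript of the gene, which is why Gap43 counted among the 9 genes with a promoter peak. With only the starts of protein-coding transcripts, the count was 8 of 10. Near the 37.0 kb site lies the start of the microRNA gene Mir6540.

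Across the 10 genes there were 41 distinct sites, 24 found in both libraries, 9 in replicate 1 alone and 8 in replicate 2 alone. Of the 24, 16 lay within 1 kb of an annotated start and 8 beyond, with 13 centred in introns, 8 in exons and 3 upstream. All 24 were also present in the smaller read-derived list and in a hotspot of both libraries, and 22 held a footprint found in both. The matching shares of all 31722 shared peaks genome-wide, by place or by list, were not calculated. These counts therefore describe the sites and do not set them apart from other peaks. The density ratio of the 24 sites between libraries ranged from 0.824 to 2.02 with a median of 1.40, close to the genome-wide median of 1.39. Sites seen in 1 library had lower densities, with a median of 0.368 in replicate 1 against 1.80 for the shared ones, and of 0.876 in replicate 2 against 1.26. Of the first-run peaks in the spans, 72.7% of those in replicate 1 and 78.4% of those in replicate 2 were found in the other library, beside 80.1% and 69.6% genome-wide. Without the 6 weak Mapt sites, left out after seeing the data, the replicate 1 share was 88.9%, 24 of 27, and the median of the other 3 sites in replicate 1 alone was 1.16. The 10 spans also held 46 hotspots and 82 footprints found in both libraries. For hotspots, 83.6% of those in replicate 1 and 70.1% in replicate 2 were found in the other library. The genome-wide shares were 78.8% and 67.6%. For footprints, 51.9% of those in replicate 1 and 39.0% in replicate 2 were found in the other library. Genome-wide these shares were 55.6% and 40.7%, slightly higher than in the spans.

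**Figure D3:**
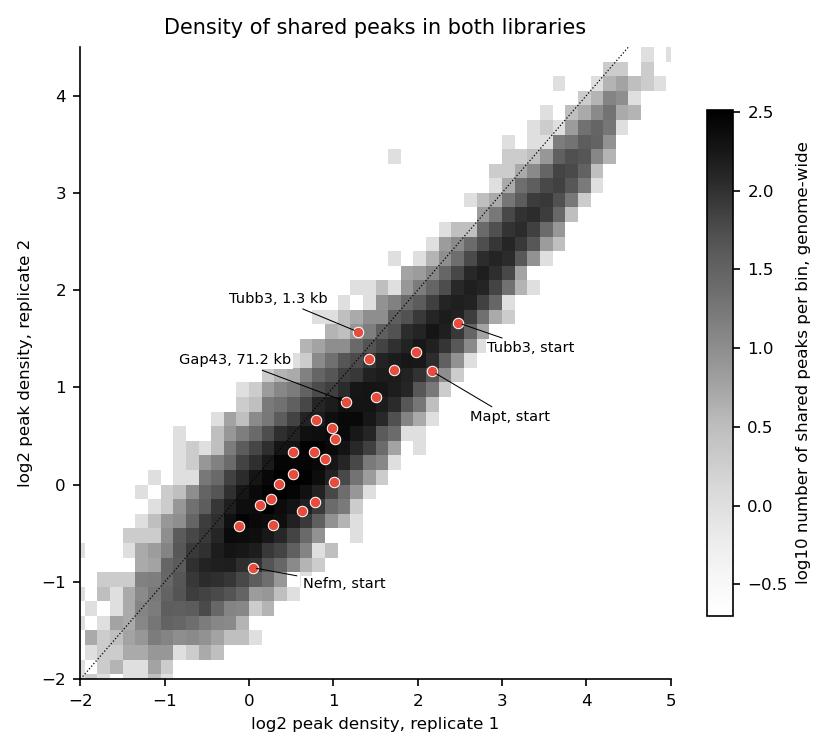
Log2 peak density in replicate 2 (vertical axis) against replicate 1 (horizontal axis) for the 24 shared sites of the 10 genes (red) over all 31722 shared peaks (grey scale, log10 number per bin); the dotted line marks equal density. Of the sites of the 10 genes, the Tubb3 site at 1.3 kb alone lies above the line.

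By promoter density the genes fell in nearly the same order in both libraries. Tubb3 was first (5.58 and 3.17) and Nefm last of those with a peak (1.03 and 0.593), with Dcx below it without one. The place of Nefm depended on the window edge: in the smaller read-derived list its 2.03 and 1.39 exceeded Nefl, Gap43 and Ina in both libraries. Mapt, Nefh and Map2 came next to Tubb3 and changed places among themselves between libraries, with 4.52, 3.95 and 3.29 in replicate 1 and 2.24, 2.58 and 2.26 in replicate 2. Likewise Stmn2 and Ina swapped (2.01 and 1.86 against 1.02 and 1.26), and so did Nefl and Gap43 (1.55 and 1.20 against 0.830 and 0.902). Neighbours that changed places did not differ beyond the variation between the libraries. Most of these genes lay below the middle of the protein-coding genes with a promoter peak, which numbered 12668 in replicate 1 and 12492 in replicate 2. The median of their strongest promoter peak was 4.09 in replicate 1 and 2.70 in replicate 2, with genes without a promoter peak left out. Only Tubb3 and Mapt exceeded it in replicate 1 and only Tubb3 in replicate 2.

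The immature-neuron genes had a lower median promoter density than the mature-neuron genes, with wide overlap. Among the 4 immature-neuron genes with a promoter peak, the median percentile was 21.1 in replicate 1 and 15.9 in replicate 2, against 40.7 and 41.5 for the 5 mature-neuron genes, a difference of −19.6 and −25.6 points. With the read-derived list it was −19.0 and −28.0, all 10 genes included. The strongest promoter of all, Tubb3, was nevertheless an immature-neuron gene, and the weakest with a first-run promoter peak, Nefm, a mature-neuron gene. Genes are not replicates, so this difference carries no test.

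The difference between the groups in shared peaks per 10 kb of span changed with the peak list. In the first-run lists the medians were 0.482 for the immature-neuron genes and 0.518 for the mature-neuron genes, a difference of −0.0359, with −0.283 in replicate 1 alone and −0.00975 in replicate 2 alone. Its sign rested on single genes: it became 0.0992 when Nefm was counted without the peaks of Nefl and 0.208 when Dcx was left out, both tried after seeing the data. A 50% reciprocal overlap also turned it, to 0.102. Other settings widened it in favour of the mature-neuron genes, to −0.449 in the looser list, −0.233 in the smaller read-derived list, −0.414 in the larger one and −0.372 in gene bodies alone. For hotspots the immature-neuron median was the higher one, 0.686 against 0.574, and for footprints the lower one, 0.978 against 2.30. Both of these mature-neuron medians are the values of Nefm, whose span also holds hotspots and footprints of the Nefl start. They were not recalculated without those features. By gene, peaks per 10 kb ran from 0 at Dcx to 1.31 at Nefl, at the 94.4th percentile of all genes, and footprints per 10 kb from 0.229 at Dcx to 5.83 at Tubb3, at the 96.3rd percentile.

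**Figure D4:**
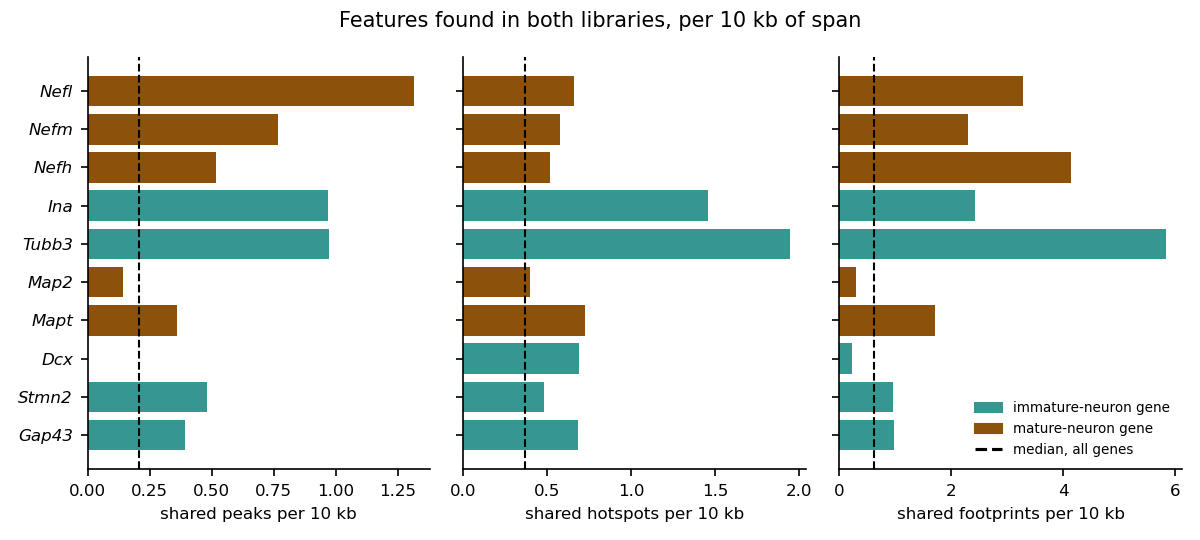
Peaks, hotspots and footprints found in both libraries per 10 kb of span (horizontal axes) for the 10 genes, coloured by group; dashed lines are the medians of all protein-coding genes, 0.208, 0.365 and 0.628. Map2 and Dcx were below the medians for peaks and footprints, with hotspots of Dcx at 0.686. The other genes were above all 3, Nefm with features of the Nefl start included. The share of all protein-coding genes above all 3 was not calculated.

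The sequence around the gene start also differed among the genes. In the 1001 bases centred on it, Dcx had 13 CpG dinucleotides, Stmn2 15 and Gap43 18, all below the median of 41 for protein-coding genes, and these are 3 of the 5 immature-neuron genes. The other 7 genes had more than the median, from 57 at Tubb3 through 70 at Nefl and Map2, 84 at Nefm, 85 at Nefh and 99 at Mapt to 101 at Ina. Of the 3 CpG-poor starts, those of Dcx and Gap43 had no first-run peak, whereas Stmn2 had one of 2.01 and 1.02. Among the CpG-rich starts, CpG number did not order the densities: Ina, with the most, had 1.86 and 1.26, and Tubb3, with the fewest of the 7, had 5.58 and 3.17.

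**Figure D5:**
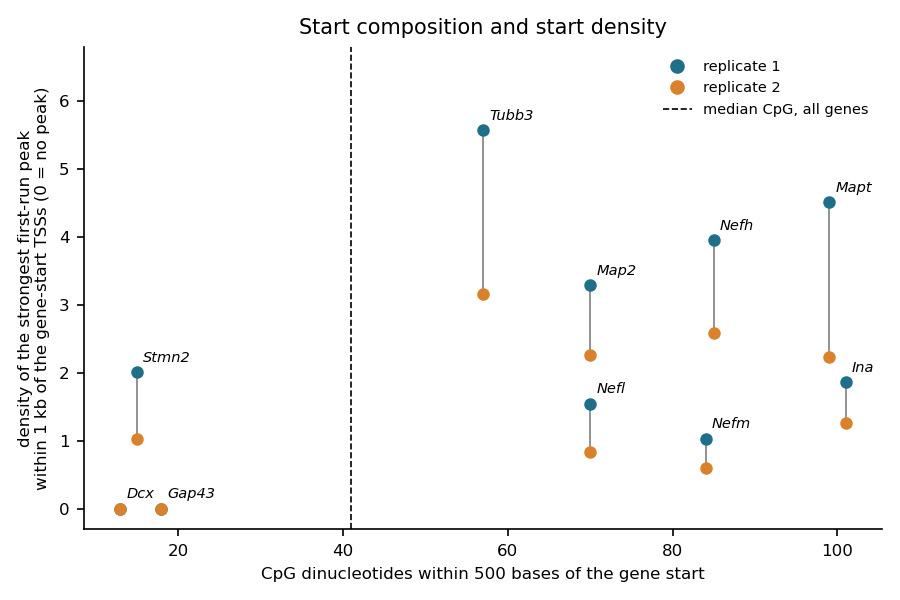
Density of the strongest first-run peak within 1 kb of the first group of starts of each gene (vertical axis, both libraries, 0 meaning no peak) against the number of CpG dinucleotides in 1001 bases around the gene start (horizontal axis); the dashed line is the median of protein-coding genes, 41. Dcx, Stmn2 and Gap43 lie to its left and the other 7 genes to its right.

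Related gene lists were counted in the same way, as a description. A promoter peak in both libraries was found for 10 of 11 tubulins other than Tubb3, led by Tubb4b with 3.19 and Tubb5 with 2.78 shared peaks per 10 kb, for 13 of 13 other microtubule-associated genes, led by Stmn1 with 1.29 and Stmn3 with 1.11, and for 12 of 13 growth cone genes, led by Marcks with 6.43 and Cfl1 with 4.07. All 6 axon scaffold genes had one, led by Sptbn1 with 0.336 and Sptbn4 with 0.296. Intermediate filament genes outside the neurofilaments had one in 4 of 12, led by Vim with 1.59 and Lmna with 0.754. Of that list, 5 genes had no peak in either library, among them the keratins Krt8, Krt5 and Krt14. The neurofilament genes Nefl, Nefm, Nefh and Ina, by contrast, each had such a peak at the promoter. As a check on the tissue, and beside 55.1% of all genes, neuronal markers had one in 4 of 5 genes, astrocyte markers in 1 of 4, oligodendrocyte markers in 0 of 4, microglial markers in 1 of 4, endothelial markers in 0 of 4, skeletal muscle markers in 0 of 3 and peripheral neuron markers in 0 of 3. A shared peak anywhere in the span did not set the neuronal markers apart. It was found for 4 of 5 neuronal, 4 of 4 astrocyte, 3 of 4 oligodendrocyte, 2 of 4 microglial, 2 of 4 endothelial, 2 of 3 muscle and 0 of 3 peripheral neuron markers. The number of peaks differed between libraries, 39608 in replicate 1 and 45915 in replicate 2, and the read depth behind the densities is unknown here.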

How the data were processed

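DNase-seq interval lists of 2 libraries, each made per library by the authors, were used as deposited. The first-run peak lists carry a cleavage density, a signal normalised to read depth by the authors, on a scale that no source at hand states. Per the file headers, the read-derived lists hold the same kind of signal and hotspots hold a highest −log10 FDR. The deposited footprint lists repeat 0.01 throughout their p-value field, so this is a cut-off rather than a measured p-value, and the deposited per-base track is an FDR, treated as a p-value column, for bases under 0.05. For the aligner and callers, names were not given in the sources used here, and the 0.001 of the first-run list and the 0.05 of the looser first-run list are inferences from the lowest per-base FDR of each peak. The stricter list keeps peaks with a base at 0.0001 or lower.

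A span was the gene body plus 10 kb upstream in GENCODE vM21, and a promoter was 1 kb to either side of any annotated TSS. Features were shared where they overlapped by 1 bp or more, and overlapping peaks were joined into sites. Percentiles were taken over all protein-coding genes or all peaks of a list. Sequences came from RefSeq tables and the genome of GRCm38.p6, the build of mm10. Shared footprints that overlapped were joined and read with 10 bases on each side. The overlap functions were tested on simulated intervals. Python 3.11.15, numpy 2.4.6, pandas 2.3.3, pysam 0.24.0 and matplotlib 3.10.9 were used. All 10 genes are named. From each related list, the leading pair by shared peaks per 10 kb and up to 3 genes without any peak are named. The genes, the lists and the grouping were chosen with earlier results of these data known. The reads of an F1 cross were placed on a C57BL/6J reference, and allelic mapping was not examined. Read depth is unknown, so no counting interval is given.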

Additional observations from a re-analysis of the deposited data

How the results depend on the processing

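With 2 libraries and no second condition, no test was run, and no paired analysis was possible because there is 1 group. The number of the 10 genes with an accessible promoter by peaks in both, 9, stayed between 7 and 10 under other lists, windows, start sets and single libraries, and was 5 with a 50% reciprocal overlap. The 24 shared peaks became 40 with the looser list, 38 and 45 with the smaller and larger read-derived lists and 39 with 50 kb to either side of the genes, and numbered 33 to 37 with either replicate alone. The count fell to 21 with the stricter list and to 16 with a 50% reciprocal overlap. The 82 shared footprints became 49 with a 50% reciprocal overlap, and 158 to 200 were listed in either replicate alone. The difference in median shared peaks per 10 kb, −0.0359, was −0.449 with the looser list, −0.233 and −0.414 with the smaller and larger read-derived lists and −0.372 in gene bodies alone, and ranged from −0.283 to −0.00975 with single replicates. It turned to 0.102 with a 50% reciprocal overlap and, in alternatives chosen after seeing the data, to 0.0992 with Nefm counted without the peaks of Nefl and 0.208 without Dcx. The causes of these shifts were not tested beyond the change of list, overlap or gene itself.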
